A study of Citrus x clementina and Citrus japonica with 6 samples.

Results

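WRKY transcription factors of citrus fruit are described here across kumquat (Fortunella japonica, called Citrus japonica in the organism label) and Clementine mandarin (Citrus x clementina). The members were the gene models of the deposited table whose first KEGG orthology name contains WRKY, or, with no KEGG name, whose protein match does. The rule gave 57 of 30139 models, all of them through the KEGG name. The first name was WRKY transcription factor 2 for 28 models, WRKY transcription factor 22 for 17, WRKY transcription factor 33 for 10, WRKY transcription factor 1 for 1 and probable WRKY transcription factor 52 for 1. These are names of the closest KEGG family and not one-to-one orthologues. Of the 57 members, 25 carried several KEGG names and 4 carried a name outside the WRKY family as well. The protein match was a hypothetical protein for 52 members. The other 5 matched sweet orange proteins named WRKY 50 (3 models), WRKY 72 and WRKY 31. A further 7 models carried a WRKY name only behind another KEGG name and were not members.

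WRKY factors are plant DNA-binding proteins named after conserved amino acids of their DNA-binding domain, which is folded around a zinc ion. They bind the W-box, a short promoter element, and can activate or repress their targets, among them the promoters of other WRKY genes. In Arabidopsis many of them act in immunity: receptors at the cell surface sense microbial molecules and start calcium and mitogen-activated protein (MAP) kinase signals, and WRKY factors are among the targets of those kinases. Others act in salicylic acid responses, senescence, drought and seed development.

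The study compared fruit of both species, and each of its 6 RNA-seq libraries pooled fruit of 5 stages. The 3 kumquat libraries held untreated fruit taken 15 to 120 days after flowering, with the last 2 stages at 80 and 120 days. The 3 clementine libraries held untreated fruit taken 15 to 180 days after flowering, with the last 2 stages at 100 and 180 days. The 3 earlier stages were at days 15, 30 and 45 in both. Species and fruit age therefore differ together and cannot be told apart, and single stages cannot be read from a pool. Both species were grown in the fields of 1 breeding centre, and material came from 3 individual plants, which are not tied to libraries. For the kumquat libraries the labels disagree, since the cultivar is given as kumquat and the stage text speaks of Clementine mandarin.

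Levels are in FPKM, which scales fragments to the length of a model and to the library, and both species were measured on clementine gene models. The library sums lay between 691560 and 707892 FPKM, and total fragment counts are unknown. Between 25523 and 26285 models were above 0. Pairs of libraries had a Pearson's r of log2(FPKM + 1) of 0.974 to 0.981 within species, and of 0.879 to 0.884 between species, across gene models and not across independent replicates. Whether kumquat reads fitted each clementine model equally well was not tested. The pools are bulk tissue, in which fewer cells of a type and less messenger RNA per cell cannot be told apart. AGAMOUS, SEPALLATA and SHATTERPROOF were found in no first KEGG name nor, with no KEGG name, in a protein match. The fruit label could therefore not be checked against carpel identity genes.

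The summed WRKY level was higher in every kumquat library than in any clementine library. The 57 members summed to 1114.4, 1188.8 and 1156.2 FPKM in kumquat libraries, against 563.6, 576.3 and 582 FPKM in clementine libraries. The mean was 1153 ± 37.3 FPKM in kumquat and 573.9 ± 9.39 FPKM in clementine (SD, n = 3 each), a ratio of 2.01. The exact two-sided permutation test over libraries gave p = 0.1, the smallest that 3 against 3 libraries allow. Summed levels of 2 other families, chosen for comparison by their KEGG names, lay closer together. MYB models summed to 1797.7 ± 20.2 FPKM in kumquat and 1986.4 ± 11.3 in clementine, a ratio of 0.905 (SD, n = 3 each). AP2/EREBP models summed to 3155.9 ± 76.6 FPKM in kumquat and 3277.2 ± 70.9 in clementine, a ratio of 0.963 (SD, n = 3 each). The difference between families was not tested.

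**Figure D1:**
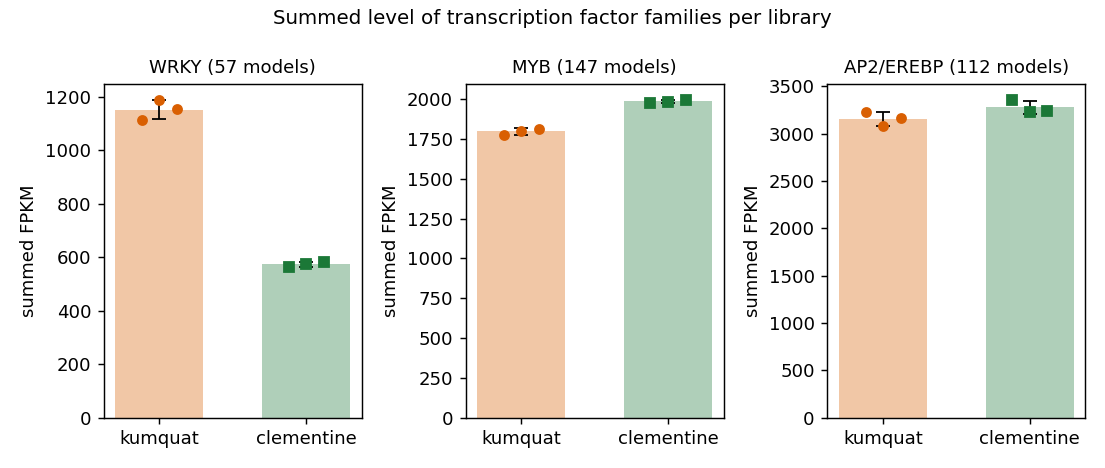
Summed FPKM of the WRKY, MYB and AP2/EREBP models in each library. Bars are means, error bars SD and points the 3 libraries per species. The WRKY sum was 1153 FPKM in kumquat and 573.9 FPKM in clementine.

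Lists chosen as markers of tissue composition moved between the species as well. A seed list found 3 models, 2 late embryogenesis abundant Lea5 proteins and a vicilin-like protein, all called higher by the limma fit. They summed to 2467.6 to 2971 FPKM in kumquat and 643.7 to 808 FPKM in clementine. A single Lea5 model averaged 2618.5 FPKM in kumquat and 701.4 FPKM in clementine. The sums therefore follow that model and are no measure of seed tissue. The vicilin-like model averaged 83.2 FPKM in kumquat and 30.6 FPKM in clementine. The storage and oil body markers oleosin, legumin and 2S albumin were not found. The search covered the first KEGG name or, with no KEGG name, the protein match. Green tissue models had 31 of 60 lower and 7 higher, with sums of 11051.9 to 12383.1 FPKM in kumquat and 12773.3 to 14013.3 FPKM in clementine. Across all tested models, 29.9% were called higher and 27.1% lower. A list of cellulose synthase A and laccase models, meant for vascular and secondary wall tissue, had 30 of 50 lower and 7 higher. Only 15 or 16 were lower without any 1 clementine library, when 38 or 39 passed the filter. Of 34 tested cellulose synthase A models, 20 were lower and 4 higher, and that name does not give the type of wall. Their sums overlapped, with 1241.5 to 1393 FPKM in kumquat and 1224.9 to 1315.4 FPKM in clementine. Those sums pool parts that went opposite ways. Cellulose synthase A models summed to 879.8 ± 35.2 FPKM in kumquat and 1113.2 ± 36.2 in clementine. Laccase models summed to 423 ± 48.8 FPKM in kumquat and 143 ± 15.1 in clementine (SD, n = 3 each for both). Even so, 10 of 16 tested laccase models were lower and 3 higher. Heat shock models, which can respond to handling, had 14 of 45 higher and 18 lower, with sums of 7012.4 to 7969.1 FPKM in kumquat and 8407.8 to 9619.9 FPKM in clementine. The part of these tissues in the WRKY levels was not tested.

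Few models made up most of the difference in the summed WRKY level. The means of 35 members were higher in kumquat, by 671.8 FPKM together, and those of 22 members were lower, with differences that added to -92.67 FPKM. The 5 largest positive differences, of Ciclev10008930m, Ciclev10000654m, Ciclev10020744m, Ciclev10008836m and Ciclev10032192m, added to 443.2 of the net 579.2 FPKM. The 5 highest models of each library held 51.4 to 53.6% of the WRKY sum in kumquat and 39.5 to 40.2% in clementine. The order of the members also differed. In kumquat the highest means were those of Ciclev10008930m (173.8 FPKM), Ciclev10000654m (146.8) and Ciclev10020744m (107.0). In clementine they were those of Ciclev10032816m (53.2 FPKM), Ciclev10025925m (52.4) and Ciclev10015049m (41.8), with Ciclev10008930m next at 41.2.

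Of the 57 members, 41 passed the filter of at least 1 FPKM in at least 3 libraries and were tested with limma over the whole table. Among them Ciclev10026395m was under 1 FPKM in every clementine library and Ciclev10022199m in every kumquat library, so each passed only through the species where it was higher. Calls were made at a Benjamini-Hochberg adjusted p under 0.05. Kumquat had 19 of the tested members higher and 8 lower, and 14 were not called. The whole table is a wide background, in which 42.9% of models were not called, against 34.1% of the WRKY models: 29.9% of 22050 tested models were called higher and 27.1% lower, against 46.3% and 19.5% of the tested WRKY models. Requiring 2-fold or more on the log2(FPKM + 1) scale as well, 13 members were higher and 3 lower. These were 31.7% and 7.32%, against 12.4% and 12.1% of all tested models. Libraries of the species did not overlap for 31 tested members, or 75.6%, against 63.9% of all tested models. The median change was 0.26 on the log2(FPKM + 1) scale over the tested members and 0.04 over all tested models. The WRKY median was 0.41 without clementine replicate 2, 0.45 without clementine replicate 3 and 0.47 when models sharing a protein match were added up. These shares describe the members and carry no test of their own.

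The members are also given by abundance, as a description. Of 19 members with a mean of at least 10 FPKM over the 6 libraries, 13 were higher, 4 lower and 2 not called, with a median log2 change of 1.34. Among all 11241 tested models of that abundance, 34.3% were higher and 29.4% lower. Of the other 22 tested members, 6 were higher, 4 lower and 12 not called, with a median of 0.08. At that level 25.4% of all models were higher and 24.7% lower. The mean includes the change itself: of the 19, 4 called rises had a clementine mean under 10 FPKM and 1 called fall had a kumquat mean under 10 FPKM. The plot of levels by library shows the 19 abundant members, and only Ciclev10007882m had overlapping libraries among them.

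**Figure D2:**
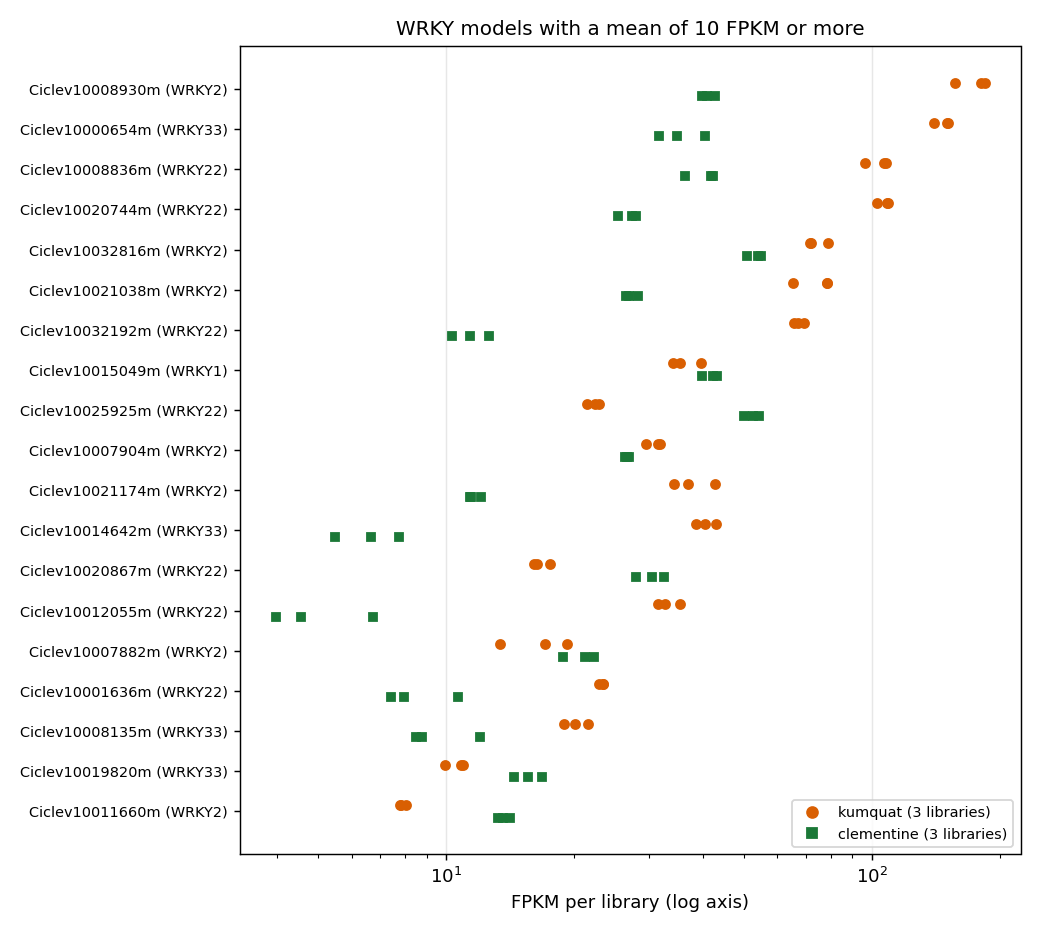
FPKM of each library, on a log axis, for the 19 WRKY models with a mean of at least 10 FPKM, ordered by that mean, with the first KEGG name in brackets. Circles are the 3 kumquat libraries and squares the 3 clementine libraries, and the circles lie to the right in 13 called models and to the left in 4.

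Models first named WRKY transcription factor 33 had the largest ratio of summed levels among the names with several models. In Arabidopsis, WRKY33 is phosphorylated by MAP kinases and switches on the synthesis of the antifungal compound camalexin. The 10 models summed to 242.5 ± 5.69 FPKM in kumquat and 97.8 ± 5.04 in clementine (SD, n = 3 each), a ratio of 2.48. Of the 8 tested, 4 were higher, 3 lower and 1 not called, where 29.9% of all tested models were higher and 27.1% lower. Ciclev10000654m, the most abundant, had 139.74, 150.88 and 149.78 FPKM in kumquat, against 31.6, 40.5 and 34.77 FPKM in clementine. Every kumquat library was above every clementine library, and the log2 change was 2.02 (SE 0.0916, limma adjusted p = 2.43e-06). Ciclev10014642m had 42.95, 40.54 and 38.62 FPKM in kumquat and 5.47, 7.75 and 6.66 FPKM in clementine. It rose by a log2 change of 2.46 (SE 0.122, limma adjusted p = 3.65e-06). Ciclev10009761m, matched to sweet orange WRKY 50, had 8.71, 11.77 and 11.72 FPKM in kumquat and 2.96, 1.84 and 5.07 FPKM in clementine, a log2 change of 1.51 (limma adjusted p = 0.00265). This model was picked with its values in view. In Arabidopsis, WRKY50 acts in salicylic acid and jasmonic acid responses.

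Another 3 WRKY33-named models fell. Ciclev10019820m had 10.85, 9.93 and 10.96 FPKM in kumquat and 16.8, 15.6 and 14.43 FPKM in clementine, with a log2 change of -0.52 (SE 0.0978, limma adjusted p = 0.00291). Ciclev10005203m averaged 5.84 ± 0.806 FPKM in kumquat and 8.40 ± 0.829 in clementine (SD, n = 3 each), a log2 change of -0.46 (limma adjusted p = 0.0255). That call was lost without kumquat replicate 1 or 2 or clementine replicate 2 or 3 (limma adjusted p between 0.0599 and 0.0827). The third, Ciclev10008138m, is described with its partner model.

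WRKY22-named models were the second largest group. Arabidopsis WRKY22 acts downstream of the MAP kinase cascade that the bacterial protein flagellin triggers, and it is also linked to leaf senescence. The 17 models summed to 394.8 ± 5.5 FPKM in kumquat and 198.7 ± 3.14 in clementine (SD, n = 3 each), a ratio of 1.99. Of 13 tested, 6 were higher, 3 lower and 4 not called, where 29.9% of all tested models were higher and 27.1% lower. Ciclev10020744m had 108.68, 109.12 and 103.07 FPKM in kumquat and 27.25, 25.26 and 27.85 FPKM in clementine. The libraries were far apart, and the log2 change was 1.96 (SE 0.0608, limma adjusted p = 4.32e-07). Ciclev10008836m had 96.22, 106.5 and 107.85 FPKM in kumquat and 36.4, 41.93 and 42.29 FPKM in clementine, a log2 change of 1.34 (SE 0.0789, limma adjusted p = 7.99e-06).

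The steepest rises of the WRKY22-named models were at lower levels. Ciclev10032192m had 69.33, 66.94 and 65.69 FPKM in kumquat and 11.38, 10.3 and 12.58 FPKM in clementine, a 5.90-fold ratio of means and a log2 change of 2.46 (SE 0.0833, limma adjusted p = 6.58e-07). Ciclev10012055m, which also carries the name WRKY transcription factor 25, had 31.41, 32.66 and 35.45 FPKM in kumquat and 4.57, 3.98 and 6.72 FPKM in clementine. Its ratio of means was 6.52-fold and its log2 change 2.51 (SE 0.166, limma adjusted p = 1.4e-05). Both also carry the name WRKY transcription factor 52, an Arabidopsis immune receptor with a WRKY domain at its end.

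In the opposite direction, Ciclev10025925m was the most abundant member to fall. It had 22.86, 22.32 and 21.37 FPKM in kumquat and 52.47, 54.41 and 50.17 FPKM in clementine, a log2 change of -1.20 (SE 0.0637, limma adjusted p = 5.04e-06). By mean level this WRKY22-named model ranked 14 among the members in kumquat and 2 in clementine. Ciclev10020867m had 17.49, 16.1 and 16.32 FPKM in kumquat and 32.52, 30.41 and 27.94 FPKM in clementine, a log2 change of -0.83 (SE 0.0825, limma adjusted p = 1.2e-04). Ciclev10028715m averaged 2.88 ± 0.494 FPKM in kumquat and 6.02 ± 0.887 in clementine (SD, n = 3 each), a log2 change of -0.85 (limma adjusted p = 0.00405). The libraries of the species did not overlap for any of the 3.

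The largest group, first named WRKY transcription factor 2, held the highest WRKY models of both species. In barley, factors called WRKY1 and WRKY2 repress basal defence and are bound by MLA immune receptors. Whether the citrus models do the same is not known from these files. The 28 models summed to 478.5 ± 24.3 FPKM in kumquat and 232.6 ± 2.32 in clementine (SD, n = 3 each), a ratio of 2.06. Of 18 tested, 9 were higher, 1 lower and 8 not called, where 29.9% of all tested models were higher and 27.1% lower. The lower count rested on the libraries used: without kumquat replicate 1, 7 were higher and 4 lower, the added falls being Ciclev10007882m (limma adjusted p = 0.0291), Ciclev10008110m (0.0313) and Ciclev10032943m (0.0313). Ciclev10008930m, the highest WRKY model of kumquat fruit, had 156.41, 184.41 and 180.66 FPKM there and 40.96, 39.88 and 42.81 FPKM in clementine. Its log2 change was 2.05 (SE 0.0741, limma adjusted p = 8.71e-07).

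Other rises of this group spanned a wide range of levels. Ciclev10021174m had 34.25, 36.9 and 42.74 FPKM in kumquat and 11.36, 12.05 and 11.41 FPKM in clementine, a log2 change of 1.62 (SE 0.0959, limma adjusted p = 8.27e-06). Ciclev10026105m had 16.51, 18.35 and 18.37 FPKM in kumquat and 2.34, 1.05 and 2.32 FPKM in clementine. Its log2 change of 2.72 (SE 0.21, limma adjusted p = 3.09e-05) was the largest of the tested members. Ciclev10032816m, the highest WRKY model of clementine fruit, had 71.9, 78.93 and 71.47 FPKM in kumquat and 50.79, 54.98 and 53.9 FPKM in clementine, a log2 change of 0.47 (SE 0.0633, limma adjusted p = 5.51e-04). Ciclev10007904m averaged 30.9 ± 1.29 FPKM in kumquat and 26.5 ± 0.300 in clementine (SD, n = 3 each), and its log2 change of 0.21 had a limma adjusted p = 0.0247. That call was lost without kumquat replicate 2 or 3 or any 1 clementine library (limma adjusted p between 0.0628 and 0.0818). The only called fall, Ciclev10011660m, had 7.82, 7.78 and 8.06 FPKM in kumquat and 13.26, 14.12 and 13.57 FPKM in clementine, a log2 change of -0.72 (SE 0.093, limma adjusted p = 4.37e-04).

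The lone WRKY1-named model, Ciclev10015049m, was close to even. It had 34.12, 39.61 and 35.43 FPKM in kumquat and 42.22, 39.82 and 43.36 FPKM in clementine. The log2 change of -0.20 (95% interval -0.37 to -0.02) was not called (limma adjusted p = 0.0568), and it was called without kumquat replicate 2 (limma adjusted p = 0.029) and after median scaling (limma adjusted p = 0.027). The WRKY52-named model, Ciclev10022199m, had 0.89, 0.92 and 0.59 FPKM in kumquat and 3.56, 1.84 and 3.89 FPKM in clementine, a log2 change of -1.15 (limma adjusted p = 0.00587). It was under 1 FPKM in every kumquat library and passed the filter only through clementine, where it was higher, so it was not tested without any 1 clementine library.

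**Figure D3:**
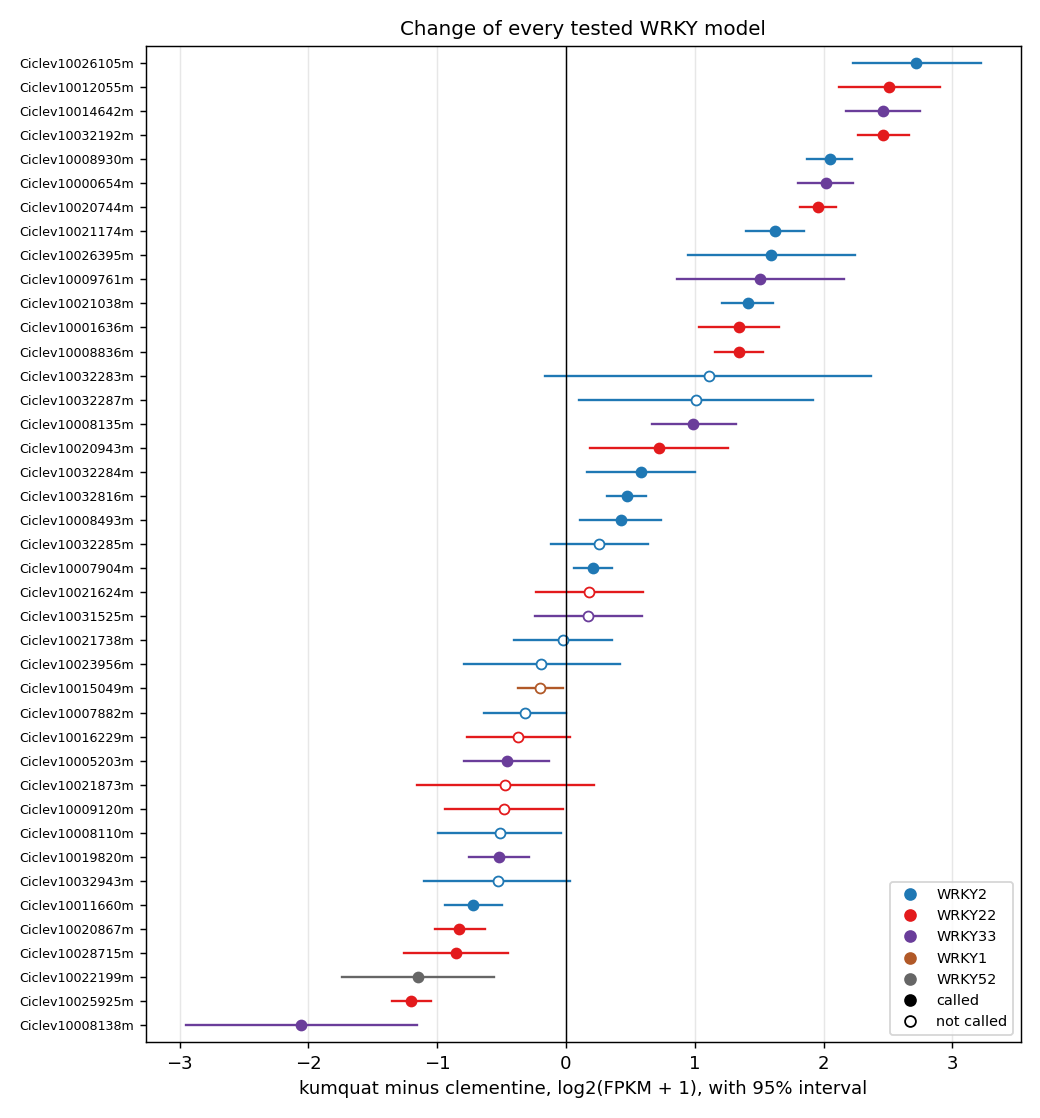
Difference of mean log2(FPKM + 1), kumquat minus clementine, with 95% limma intervals, for the 41 tested WRKY models, coloured by first KEGG name. Filled points were called: 19 lie above 0 and 8 below, from 2.72 for Ciclev10026105m to -2.06 for Ciclev10008138m.

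Several members share a protein match and may be transcripts of the same locus. The 57 members have 46 distinct matches, 8 of which hold 2 or more members. Reads can be split between such models, so the sums were fitted as well. In the pair matched to CICLE_v10008135mg the models went opposite ways. Ciclev10008138m had 4.23, 3.65 and 0.8 FPKM in kumquat and 14.8, 14.38 and 11.95 FPKM in clementine, and fell with a log2 change of -2.06 (limma adjusted p = 0.00276). Ciclev10008135m had 18.93, 20.03 and 21.53 FPKM in kumquat and 8.47, 8.77 and 12.01 FPKM in clementine, a log2 change of 0.99 (limma adjusted p = 6.66e-04). The share of Ciclev10008138m in the pair was 12.4 ± 7.79% in kumquat and 58.5 ± 7.53% in clementine (SD, n = 3 each). Their sum was 23.1 ± 0.681 FPKM in kumquat and 23.5 ± 0.437 in clementine (SD, n = 3 each) and was not called, with a log2 change of -0.02 (limma adjusted p = 0.77).

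In another match the shares shifted and the sum changed as well. The 3 models of CICLE_v10021038mg summed to 80.8 ± 6.96 FPKM in kumquat and 36.3 ± 2.17 in clementine (SD, n = 3 each), a log2 change of 1.13 (limma adjusted p = 3.29e-06). The main model, Ciclev10021038m, had 65.28, 78.44 and 78.44 FPKM in kumquat and 28.24, 26.83 and 26.49 FPKM in clementine, a log2 change of 1.41 (limma adjusted p = 8.9e-06). It held 91.6 ± 2.04% of the match in kumquat and 75.0 ± 3.13% in clementine (SD, n = 3 each). The WRKY52-named Ciclev10022199m, lower by itself, belongs to the same match, so its fall stood beside a rise of the sum.

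Both of the next sums were called higher. The pair of CICLE_v10026105mg summed to 20.5 ± 0.885 FPKM in kumquat and 2.12 ± 0.607 in clementine (SD, n = 3 each), a log2 change of 2.80 (limma adjusted p = 8.22e-07). The 4 models of CICLE_v10032285mg summed to 15.0 ± 1.55 FPKM in kumquat and 8.56 ± 0.765 in clementine (SD, n = 3 each). That sum was called with a log2 change of 0.74 (limma adjusted p = 3.73e-04). Of its models only Ciclev10032284m was called by itself (log2 change 0.58, limma adjusted p = 0.026), and that call was lost without any 1 of the 6 libraries (limma adjusted p between 0.0532 and 0.103). With every match summed, 31 WRKY matches were tested, of which 17 were higher, 8 lower and 6 not called (54.8% and 25.8% called, against 34.4% and 30% of all 17638 matches tested). A match sum also takes in models that are not members. The match CICLE_v10031225mg was called higher (log2 change 0.87, limma adjusted p = 3.44e-04). Ciclev10031225m, which is not a member, held 83.5 ± 3.69% of it in kumquat and 73.2 ± 5.82% in clementine (SD, n = 3 each). The member of that match, Ciclev10031525m, was not called by itself (limma adjusted p = 0.432).

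**Figure D4:**
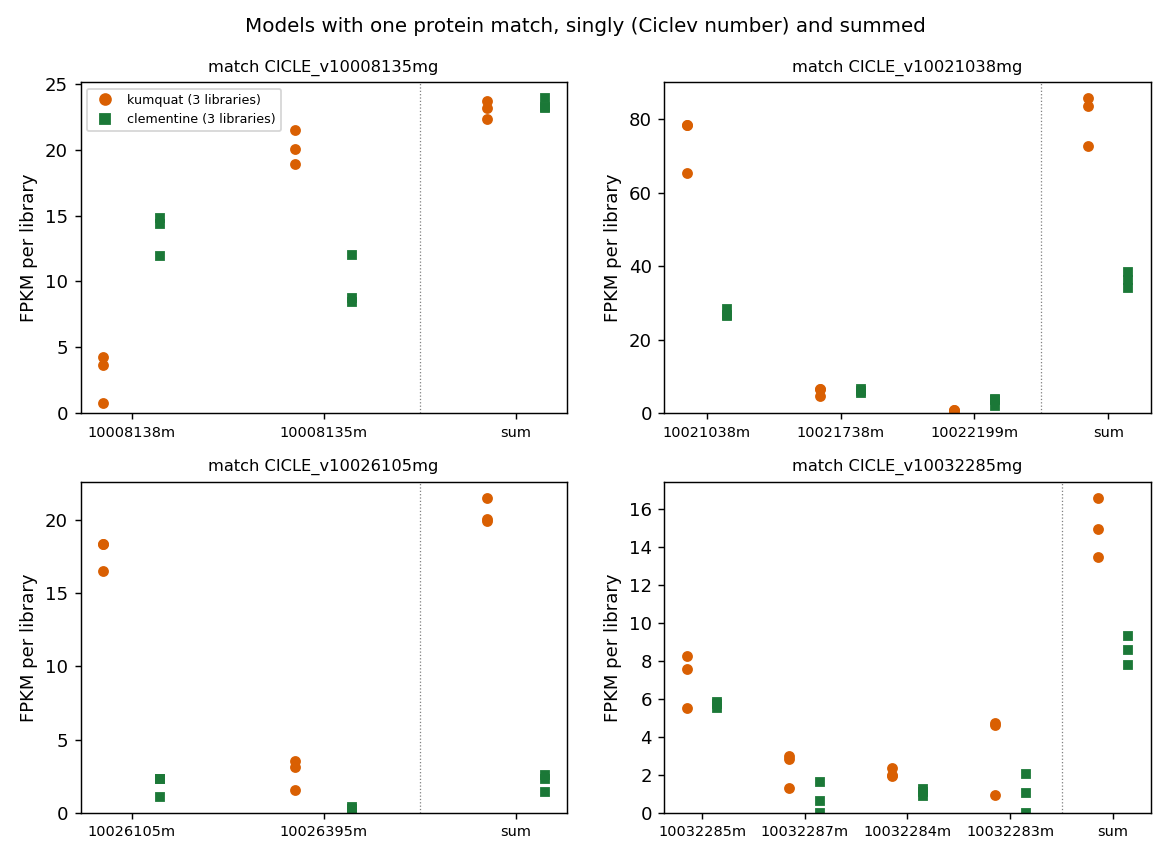
FPKM of each library for the models of 4 shared protein matches and for their sum. Circles are kumquat and squares clementine. In CICLE_v10008135mg the 2 models go opposite ways while the sums lie at 23.1 FPKM in kumquat and 23.5 FPKM in clementine.

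The other 16 members did not pass the filter and reached at most 1.76 FPKM in any library. All 57 members were above 0 in at least 1 library, 4 were listed at 0 in all kumquat libraries and 4 in all clementine libraries. The highest of these 8 in any library were Ciclev10007917m, matched to WRKY 31, with 0.26, 1.5 and 0.33 FPKM in kumquat, and Ciclev10009937m, matched to WRKY 50, with 1.36, 0.24 and 0.72 FPKM in clementine. Both were picked with their values in view. No member was listed at 0 in a whole species and at 3 FPKM or more throughout the other. A member seen in only 1 species at such levels cannot be told from a low one at unknown depth.

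The signalling pathways around WRKY factors were described from lists of KEGG names. Genes of salicylic acid and resistance signalling were mostly higher. Higher calls were 25 of 45 tested models, with 5 lower and 15 uncalled (55.6% and 11.1%, against 29.9% and 27.1% of all tested models). Without any 1 clementine library, 23 to 25 were higher and 3 lower, of 43 or 44 that passed the filter. Without any 1 kumquat library, 20 were higher and 4 or 5 lower, of 41 or 42. Their median log2 change was 0.57, and their sum was 784.9 ± 20.6 FPKM in kumquat and 542.8 ± 12.7 in clementine (SD, n = 3 each). EDS1, a lipase-like protein needed for resistance triggered by many immune receptors, had 4 of 5 tested models higher and 0 lower. Of these, Ciclev10011372m had 44.54, 49.41 and 45.41 FPKM in kumquat and 16.84, 19.32 and 19.39 FPKM in clementine, a log2 change of 1.28 (limma adjusted p = 1.17e-05). TGA factors, which bind DNA together with the salicylic acid receptor NPR1, had 8 of 15 models higher and 0 lower. NPR1-named models went both ways, with 6 of 16 higher and 5 lower. Among them Ciclev10030929m fell to 7.61, 7.68 and 9.5 FPKM in kumquat, against 23.67, 19.7 and 21.18 FPKM in clementine (log2 change -1.28, limma adjusted p = 8.12e-05).

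MAP kinase cascade models had shares of calls near those of all models. Of 67 tested, 21 were higher, 15 lower and 31 not called (31.3% and 22.4%, against 29.9% and 27.1% of all tested models), with a median log2 change of 0.15. Their sum was higher in kumquat, at 1744.7 ± 67.4 FPKM against 1250.6 ± 48.5 in clementine (SD, n = 3 each), a ratio of 1.4. Ciclev10028667m, named mitogen-activated protein kinase 1/3, had 225.81, 219.8 and 221.59 FPKM in kumquat and 67.98, 76.86 and 70.67 FPKM in clementine, a log2 change of 1.62 (limma adjusted p = 8.45e-07). Ciclev10020789m, named mitogen-activated protein kinase kinase kinase 7, had 19.83, 15.96 and 19.45 FPKM in kumquat and 42.05, 35.37 and 37.77 FPKM in clementine, a log2 change of -1.02 (limma adjusted p = 1.42e-04). The single model of mitogen-activated protein kinase 6 averaged 105.2 ± 6.54 FPKM in kumquat and 89.6 ± 2.09 in clementine (SD, n = 3 each) and was called higher, while the single model of kinase kinase 4/5 was not called.

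The receptors upstream had more lower than higher calls. Pattern receptors and co-receptors had 27 of 95 tested models higher, 39 lower and 29 uncalled (28.4% and 41.1%, against 29.9% and 27.1% of all tested models), with a median log2 change of -0.22. Without any 1 kumquat library, 14 were higher and 36 or 37 lower, of 83 to 85 that passed the filter. Without any 1 clementine library, 22 or 23 were higher and 31 or 32 lower, of 87 or 88. The co-receptor BAK1 had all 3 models higher, none of them by 2-fold. Models named somatic embryogenesis receptor kinase 1 had 3 of 29 tested higher and 14 lower. Those named FLS2 had 16 of 46 higher and 20 lower. Ciclev10030614m, named EFR after the Arabidopsis receptor for a bacterial elongation factor, had 18.5, 18.49 and 17.75 FPKM in kumquat and 8.3, 8.18 and 8.35 FPKM in clementine (log2 change 1.05, limma adjusted p = 3.89e-05). Ciclev10001310m, named chitin elicitor-binding protein, had 44.58, 38.33 and 37.59 FPKM in kumquat and 95.43, 93.01 and 92.9 FPKM in clementine (log2 change -1.21, limma adjusted p = 9.96e-06). The calcium and oxidative burst list had 44 of 128 models higher and 41 lower (34.4% and 32%). That balance shifted with the species that lost a library, when fewer models passed the filter. Without any 1 kumquat library, 30 to 33 were higher and 36 to 38 lower, of 115 to 119. Without any 1 clementine library, 40 to 42 were higher and 26 or 27 lower, of 115 to 117. In it, a calmodulin, Ciclev10012752m, averaged 225.1 ± 31.1 FPKM in kumquat and 57.8 ± 7.48 in clementine (log2 change 1.94, limma adjusted p = 1.26e-05). A calcium-binding protein CML, Ciclev10009740m, averaged 149.6 ± 11.9 FPKM in kumquat and 362.3 ± 10.9 in clementine (log2 change -1.27, limma adjusted p = 4.83e-06; SD, n = 3 each for both).

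Defence proteins, which lie at the output of these pathways, did not share the higher sum of the WRKY models. Higher calls were made for 25 of 66 tested models and lower calls for 28 (37.9% and 42.4%, against 29.9% and 27.1% of all tested models). The models of the list summed to 4993 ± 238 FPKM in kumquat and 10531 ± 258 in clementine (SD, n = 3 each). Chitinases, which cut fungal cell walls, had 12 of 20 models higher and 4 lower, yet their sum was 3698 ± 283 FPKM in kumquat and 8111 ± 369 in clementine (SD, n = 3 each). A single chitinase, Ciclev10028959m, had 491.66, 503.31 and 523.12 FPKM in kumquat and 3565.06, 3840.85 and 3908.19 FPKM in clementine (log2 change -2.89, limma adjusted p = 1.3e-07). Another, Ciclev10026057m, had 349.05, 336.74 and 350.73 FPKM in kumquat and 34.02, 32.69 and 32.87 FPKM in clementine (log2 change 3.34, limma adjusted p = 4.3e-08). Models named glucan endo-1,3-beta-glucosidase held most of the lower calls of the list. Those numbered 1/2/3 had 6 of 22 tested models higher and 13 lower. They summed to 797.3 ± 42.8 FPKM in kumquat and 1459.4 ± 74 in clementine. Those numbered 4 had 2 of 12 higher and 6 lower, and summed to 272.6 ± 7.21 and 704.4 ± 24.1 FPKM (SD, n = 3 each for both). Those numbered 5/6 had 1 of 4 higher and 2 lower. Pathogenesis-related protein 1, a common marker of salicylic acid responses, had 3 of 4 tested models higher and 1 lower. Its level was low: the 5 models summed to 23.5 ± 3.3 FPKM in kumquat and 11.9 ± 0.831 in clementine (SD, n = 3 each). VQ motif proteins, which bind WRKY factors, were found in no first KEGG name nor, with no KEGG name, in a protein match.

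**Figure D5:**
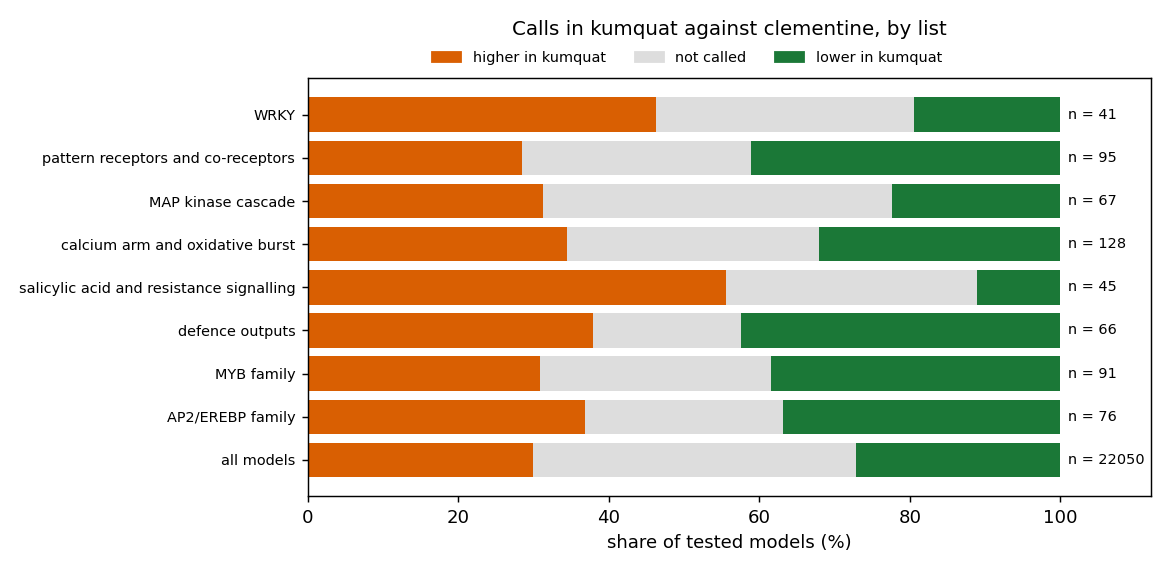
Share of tested models called higher, not called and called lower in kumquat for the WRKY models, 5 pathway lists, the MYB and AP2/EREBP families and all tested models. Numbers beside the bars are tested models. Higher calls made up 46.3% of the WRKY models and 29.9% of all models.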

How the data were processed

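Per the labels' protocols, a TRIzol extract cleared of DNA was sequenced on an Illumina Genome Analyzer. HISAT, StringTie and DESeq2 are listed without versions or roles, per the submitters' processing notes, and the genome build is not given in the sources used here. The deposited file holds FPKM per gene model, which the authors computed per the file headers. No coordinates are printed. Of the members, 34 are linked to a RefSeq gene through the protein accession.

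FPKM are not counts, so no count test was run. The filter kept models that reached 1 FPKM in 3 or more libraries. Their log2(FPKM + 1) values were fitted by limma 3.58.1 (R 4.3.3), the prior variance following the mean, as kumquat minus clementine. A fold change on this scale, on which the 2-fold limit was also set, understates the change of low models. Tests are two-sided, and p-values were adjusted over all 22050 tested models. The fit was tested on simulated data. Since replicates are not tied to trees, p-values measure only the spread between these libraries. Models of one match are those with the same clementine locus name, or otherwise the same protein match.

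Named members were the 10 most abundant, up to 8 called rises and 8 called falls without overlap and with at least 5 FPKM in the higher species, any listed at 0 in a whole species and at 3 FPKM or more throughout the other (there was none), the top model of each KEGG name, and the top called model of each pathway list in each direction at 2-fold. Members and lists were chosen with earlier results of these data known. Planned proteins and promoters were not analysed here. Alternatives were another pseudocount, other filters, median scaling, a replicate block, a single prior variance, each library left out, summed matches and a wider membership rule.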

Additional observations from a re-analysis of the deposited data

How the results depend on the processing

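No member called under the settings for pseudocount, filter, scaling, block, prior variance or left-out library changed direction against its reported call. Leaving out 1 library at a time gave 15 to 17 higher and 6 to 10 lower WRKY members, a median log2 change of 0.28 to 0.45, a difference of the summed level of 561.3 to 598.5 FPKM, and 10046 to 11310 calls over all models. Of the 27 called members, 20 were called in every such fit, 14 higher and 6 lower, and 2 others missed the filter in at least 1 fit. Beside Ciclev10005203m and Ciclev10007904m, 3 calls were lost: Ciclev10032284m without any 1 library (limma adjusted p from 0.0532 to 0.103), Ciclev10008493m in all but that without kumquat replicate 3 (0.0577 to 0.0852) and Ciclev10020943m without kumquat replicate 1 or 2 or clementine replicate 3 (0.0879 to 0.0925). With no filter, 22 members were higher and 9 lower. With a filter of 5 FPKM, 16 were higher and 7 lower of 30. Median scaling moved the difference of the summed level to 549.9 FPKM and gave 18 higher and 10 lower members, and the median change of all models was 0.001 instead of 0.041. Summing matches moved the median of the WRKY changes to 0.47, and the match of Ciclev10022199m then changed by 1.13, opposite to the model by itself. A replicate block gave 18 higher and 10 lower members. The same numbers in both species are not known to pair the libraries (correlation of deviations 0.119, 0.0424 and 0.0657). For the MYB family, 28 models were higher and 35 lower, but 29 of 72 summed matches were higher and 24 lower, and without any 1 library 14 to 27 models were higher and 24 to 31 lower. A left-out library leaves 2 in its species, so fewer models reach 1 FPKM in 3 libraries. Depth is unknown, so models near 1 FPKM have no counting interval.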

Other observations

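A further 7 models carry a WRKY name only behind another KEGG name. Of the 6 tested, 4 were called higher and 0 lower, against 29.9% and 27.1% of all tested models, and all 4 are first named F-box and leucine-rich repeat protein 2/20. Ciclev10032012m had 19.49, 24.12 and 21.16 FPKM in kumquat and 5.89, 3.84 and 4.36 FPKM in clementine (log2 change 2.00, limma adjusted p = 3.5e-05). Ciclev10011386m had 13.57, 13.89 and 14.03 FPKM in kumquat and 2.02, 1.04 and 1.65 FPKM in clementine (log2 change 2.55, limma adjusted p = 1.7e-05). Ciclev10009250m had 4.53, 6.12 and 3.79 FPKM in kumquat and 0.1 FPKM in each clementine library, and it passed the filter only through kumquat. The fourth, Ciclev10031225m, averaged 23.8 FPKM in kumquat and 11.1 FPKM in clementine and shares its protein match with a member, Ciclev10031525m, whose change was not called. With these models counted in, 23 were higher and 8 lower of 47 tested, and the median log2 change was 0.43. These models were picked with their values in view.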
